A study of Mus musculus with 12 samples.

Results

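The genes described here are 8 enzymes of folate one-carbon metabolism, Shmt1, Shmt2, Mthfd1, Mthfd1l, Mthfd2, Mtr, Mtrr and Aldh1l1, among 51826 entries of a gene count table of mouse hearts. They were taken by symbol, and the set was chosen by the measured rise of Shmt1 in CUG960 +dox hearts, so the CUG960 values of Shmt1 are a description and carry no test. All 8 were found and all passed the filter on low counts in each comparison. CUG960 +dox mice were homozygous for TREDT960I, a tetracycline-responsive transgene with 960 interrupted CUG repeats in human DMPK exons, and hemizygous for MHCrtTA, in which the Myh6 promoter drives expression of the transactivator protein in cardiomyocytes. Controls (MHCrtTA +dox) were hemizygous for the transactivator and carried no repeat transgene. All 12 libraries are labelled as from female mice of the FVB background, 10 weeks old, with dox from postnatal day 1, and the genotypes came from separate matings. Atria and ventricles of the same 6 mice (CUG960 V119, V120 and V123, control V327, V333 and V334) gave 12 poly(A) RNA-Seq libraries, 3 in each of 4 groups, with 116127966 to 160676189 counts. The human transgene RNA was not analysed here, and the mouse gene Dmpk itself was at 432 to 447 CPM in control atria, 440 to 501 in CUG960 atria, 542 to 601 in control ventricles and 600.0 to 757 in CUG960 ventricles. CPM are counts per 1000000 of the library size, scaled by the trimmed mean of M values (TMM).

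The summed level of 5 atrial cardiomyocyte markers, led by Nppa, was 26254 to 28837 CPM in control atria, 21646 to 23726 in CUG960 atria, 77.3 to 153.3 in control ventricles and 91.4 to 312.4 in CUG960 ventricles. That of 5 ventricular markers, led by Myl2, was 14970 to 18939 CPM in all ventricles against 1052 to 1387 in all atria, where Myh7 alone was at 1030 to 1368 CPM. Between genotypes in ventricles, Nppa was at 48.6 to 84.8 CPM in controls and 86.6 to 224.4 in CUG960 mice, a difference of 1.3 ± 0.31 (edgeR, adjusted P = 0.0314, up to 0.105 with a mouse left out), and Bmp10 was at 2.39 to 3.75 and 0.0343 to 0.275 CPM, a difference of -4.06 ± 0.50 (adjusted P = 0.00161). The ventricular library of CUG960 mouse V123 stood apart in some atrial markers. Myl7 was at 55.9 CPM in it against 0.192 and 0.304 in V119 and V120, Sln at 18.5 against 0.213 and 0.341, and Myl4 at 86.3 against 4.35 and 6.13, while Bmp10 was at 0.208 against 0.0343 and 0.275. In control ventricles Myl7 was at 4.98 to 19.3 CPM, Sln at 2.9 to 7.84 and Myl4 at 12.6 to 37.5, each highest in V334. Without V123 the ventricular CUG960 difference on the log2 scale was 2.48 for Shmt1, -1.01 for Mtr (edgeR, adjusted P = 0.00183) and 0.94 for Mthfd2 (adjusted P = 0.0479), and calls of the 8 genes and of the wider pathway that were lost without V123 are given below with their values. The atrial library of control V327 stood apart in some ventricular markers, with Myl2 at 33.5 CPM against 8.82 and 11.7 in V333 and V334 and Myl3 at 20.7 against 6.09 and 8.93. It also had the highest Shmt1 of the control atria, at 4.16 CPM against 2.59 and 2.37. In control ventricles Myl2 was at 8504 to 10523 CPM and Shmt1 at 6.58 to 7.54 CPM. Whether the markers and Shmt1 of this library are related was not tested. Without V327 the atrial difference of Shmt1 was 2.43, the excess of the ventricular over the atrial difference was 0.07, and the difference between control chambers was 1.52. The libraries hold whole chambers with several cell types, and in such tissue fewer cells of a type and less RNA per cell cannot be told apart.

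Folate coenzymes carry single carbon units between metabolic reactions. Serine hydroxymethyltransferases move a carbon from serine to tetrahydrofolate and release glycine, SHMT1 in the cytosol and SHMT2 in mitochondria. The carbon is oxidized or reduced by the MTHFD enzymes, and it is then spent on purines and thymidylate or on remethylation of homocysteine to methionine by the cobalamin enzyme methionine synthase, encoded by Mtr. In many cell types most of these carbons come from the mitochondrial arm, and Mthfd2 is known as an enzyme of embryonic and proliferating cells.

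Sequences just upstream of the RefSeq start sites are shown for Shmt1, Mthfd2 and Mtr, the genes of the 8 that differed by at least 1.5-fold between genotypes in some chamber. They are on the minus strand of GRCm38.p6, at chr11:60811266-60811515 for Shmt1, chr6:83317605-83317854 for Mthfd2 and chr13:12258114-12258363 for Mtr. Each is the 250 bases before the start, read 5′ to 3′, and capitals mark matches on either strand to the CCAAT box (CCAAT), the GC box (GGGCGG), the E-box (CACGTG) or the C/EBP-ATF element (TGATGCAA).
Shmt1: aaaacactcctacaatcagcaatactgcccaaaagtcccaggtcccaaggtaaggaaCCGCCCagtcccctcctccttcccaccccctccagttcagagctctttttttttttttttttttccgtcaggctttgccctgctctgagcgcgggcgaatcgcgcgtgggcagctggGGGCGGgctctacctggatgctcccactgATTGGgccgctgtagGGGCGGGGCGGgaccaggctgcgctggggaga
Mthfd2: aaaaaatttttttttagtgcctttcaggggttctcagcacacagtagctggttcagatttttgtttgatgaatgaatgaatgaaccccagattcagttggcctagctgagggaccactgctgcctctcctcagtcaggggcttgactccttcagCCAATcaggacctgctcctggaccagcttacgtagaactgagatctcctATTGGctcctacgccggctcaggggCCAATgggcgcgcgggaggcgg
Mtr: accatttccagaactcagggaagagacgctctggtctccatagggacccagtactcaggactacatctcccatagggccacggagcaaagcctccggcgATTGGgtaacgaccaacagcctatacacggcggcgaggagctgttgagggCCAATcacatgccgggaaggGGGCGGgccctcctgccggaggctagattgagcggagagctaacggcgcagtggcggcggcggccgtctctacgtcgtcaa
The Shmt1 window held 4 GC boxes, some of which overlap, and 1 CCAAT box. The Mthfd2 window held 3 CCAAT boxes and no GC box, and the Mtr window held 2 CCAAT boxes and 1 GC box. None of the windows of the 8 genes held the E-box or the C/EBP-ATF element. Over all 32851 RefSeq windows of the same length, the shares with a match were 33.8% for the CCAAT box, 32.7% for the GC box, 6.02% for the E-box and 0.791% for the C/EBP-ATF element. These matches describe the letters only. In the Shmt1 window 49 bases are also an exon of a noncoding Shmt1 transcript in GENCODE M21. That window lies inside Shmt1 as annotated there, from 60788104 to 60811718. The Mthfd2 window shares 2 bases with an exon of its protein-coding transcript and lies inside the gene as annotated there, from 83305691 to 83325908.

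Shmt1 encodes the cytosolic enzyme and was the most changed of the 8 genes, by the choice described above. It lies on chromosome 11 from 60788104 to 60811718 on the minus strand. In atria it was at 4.16, 2.59 and 2.37 CPM in controls V327, V333 and V334 and at 12.6, 13.2 and 14.3 CPM in CUG960 mice V119, V120 and V123. In ventricles it was at 6.68, 6.58 and 7.54 CPM in controls and at 35.8, 41.6 and 42.7 CPM in CUG960 mice. The 4 groups did not overlap, with control atria lowest, then control ventricles, CUG960 atria and CUG960 ventricles. The fitted difference was 2.14 ± 0.20 (SE, n = 3 and 3 mice) on the log2 scale in atria, 4.4-fold, and 2.53 ± 0.10 in ventricles, 5.78-fold. When single mice were left out, the atrial difference ranged from 1.99 to 2.43 and the ventricular one from 2.48 to 2.61. The ventricular difference exceeded the atrial one by 0.39 ± 0.23 on the log2 scale, and by 0.07 to 0.61 with a mouse left out. The last 184 exonic bases of Shmt1 overlap Smcr8 on the other strand, and Smcr8 was at 26.6 to 27.3 CPM in control atria, 22.1 to 27.5 in CUG960 atria, 19.1 to 26.9 in control ventricles and 21.4 to 22.7 in CUG960 ventricles, overlapping in both chambers.

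**Figure D1:**
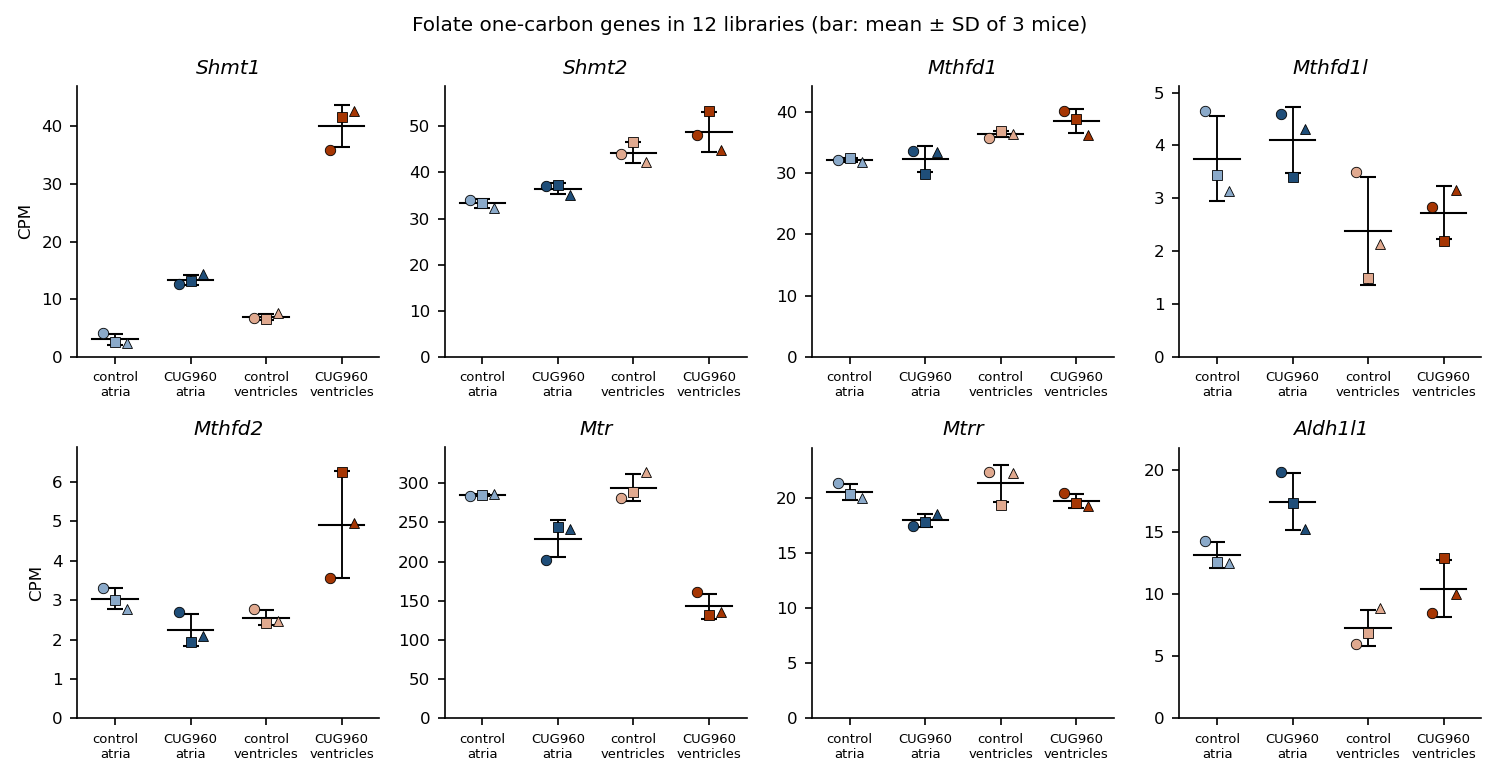
Level of each of the 8 genes in CPM (vertical axis, linear from 0) in each library, by group. Points are mice (circle, square and triangle for V327, V333 and V334 in controls and for V119, V120 and V123 in CUG960), bars are mean ± SD of 3. Shmt1 is highest in CUG960 ventricles at 35.8 to 42.7 CPM, and Mtr is lowest there at 132 to 161 CPM.

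Among the other 7 genes, none in atria and 2 in ventricles, Mthfd2 and Mtr, passed the threshold by the edgeR quasi-likelihood test, which was a change of 1.5-fold or more with an adjusted P value under 0.05. The share of all genes that passed was 5.49% in atria (3.37% higher, 2.12% lower) and 4.75% in ventricles (3.0% higher, 1.76% lower). With the adjusted P value alone, 2 of 7 passed in atria, Aldh1l1 upward and Mtr downward, where 14.6% of all genes did (7.95% higher, 6.62% lower). The same rule gave the same 2 of 7 in ventricles, Mthfd2 and Mtr, against 9.94% of all genes (5.73% higher, 4.2% lower). The median difference of the 7 was 0.01 in atria and 0.14 in ventricles on the log2 scale, beside -0.01 over all genes tested in each chamber.

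Mtr encodes methionine synthase, which takes the methyl group of methyl-tetrahydrofolate for homocysteine. It was at 284, 285 and 286 CPM in control atria and at 202, 244 and 242 CPM in CUG960 atria. In ventricles it was at 281, 288 and 314 CPM in controls and at 161, 132 and 135 CPM in CUG960 mice. Control values overlapped between the chambers, and every CUG960 library was below every control library of its chamber. In ventricles Mtr fell by 1.04 ± 0.09 on the log2 scale, to 0.485 of the control level (edgeR, adjusted P = 0.000278), and with a mouse left out the difference was -1.14 to -0.99 with an adjusted P value of at most 0.00272. In atria the difference was -0.31 ± 0.08, 0.804 of the control level (edgeR, adjusted P = 0.0342), and the adjusted P value reached 0.098 with a mouse left out. The genotype difference itself differed between chambers by -0.73 ± 0.13 (edgeR interaction, adjusted P = 0.0164). This interaction passed without V119 and was lost without any other mouse, with an adjusted P value of 0.104 without V120, 0.0883 without V123, 0.068 without V327, 0.0786 without V333 and 0.0665 without V334.

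Mtr lies on chromosome 13 from 12182712 to 12258113 on the minus strand, between Ryr2 and Actn2 on the same strand, with gaps of 75767 and 11313 bases. These neighbours were looked at for their position and are outside the rule for named genes. Ryr2, the cardiac calcium release channel, was at 758 to 814 CPM in control atria and 453 to 669 in CUG960 atria, and at 650.3 to 945 CPM in control ventricles and 470.1 to 539 in CUG960 ventricles. In ventricles Ryr2 fell by 0.67 ± 0.13 on the log2 scale (edgeR, adjusted P = 0.0148, up to 0.0637 with a mouse left out). In atria its difference was -0.53 ± 0.13 (adjusted P = 0.0298, up to 0.107 with a mouse left out), under 1.5-fold, and the groups did not overlap in either chamber. Actn2, sarcomeric alpha-actinin, differed by 0.03 ± 0.09 in ventricles (adjusted P = 0.88) and by -0.25 ± 0.07 in atria (adjusted P = 0.0562). Mtrr, methionine synthase reductase, which restores the oxidized cobalamin of MTR, was at 19.4 to 22.4 CPM in control ventricles and 19.3 to 20.5 in CUG960 ventricles, a difference of -0.11 ± 0.09 (adjusted P = 0.494). In atria Mtrr was at 20.6 ± 0.678 CPM (SD, n = 3) in controls and 17.5 to 18.6 in CUG960 mice, with no overlap and a difference of -0.19 ± 0.06 (adjusted P = 0.0709).

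Mthfd2 encodes the mitochondrial methylene-tetrahydrofolate dehydrogenase and cyclohydrolase. In ventricles it was at 2.77, 2.41 and 2.47 CPM in controls and at 3.55, 6.25 and 4.96 CPM in CUG960 mice. In atria it was at 3.31, 3.0 and 2.78 CPM in controls and at 2.71, 1.94 and 2.10 CPM in CUG960 mice. CUG960 libraries were thus all above the controls in ventricles and all below them in atria, though V119 was nearest to the controls in both. Mthfd2 rose in ventricles by 0.95 ± 0.20 on the log2 scale, 1.93-fold (edgeR, adjusted P = 0.0182), a call that was lost without V120 (0.74, adjusted P = 0.0593) and without V333 (0.91, adjusted P = 0.0529). The atrial difference of -0.43 ± 0.16 did not pass (adjusted P = 0.108). The genotype difference was 1.38 ± 0.27 higher in ventricles than in atria (edgeR interaction, adjusted P = 0.0293), and a fit with a mouse block gave 1.36 with an adjusted P value of 0.0542, which does not pass. Without V120, V123, V327, V333 or V334 the adjusted P value of the interaction was 0.131, 0.114, 0.11, 0.148 and 0.0865, and it passed without V119. Mthfd2 and Mtr were the 2 of 7 genes whose interaction passed, where 1.38% of all genes did (0.693% with the change higher in ventricles and 0.688% with it higher in atria). Slc4a5 and Mob1a, neighbours of Mthfd2 at gaps of 746 and 108 bases, were also looked at for their position. Slc4a5 had 4 to 10 counts in control atria and 35 to 50 in CUG960 atria. Its difference there of 2.56 ± 0.37 is therefore a description only, and it was not tested in ventricles. In atria Mob1a differed by -0.26 ± 0.05 (edgeR, adjusted P = 0.0161, up to 0.0809 with a mouse left out). In ventricles it differed by -0.23 ± 0.08 (adjusted P = 0.106).

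Shmt2, Mthfd1 and Mthfd1l did not pass in either chamber. Shmt2, the mitochondrial partner of Shmt1, was at 34.1, 33.4 and 32.3 CPM in control atria, 37.1, 37.2 and 35.2 in CUG960 atria, 44.0, 46.7 and 42.2 in control ventricles and 48.1, 53.4 and 44.9 in CUG960 ventricles. The genotypes did not overlap for Shmt2 in atria and did in ventricles. Its difference was 0.13 ± 0.06 in atria (adjusted P = 0.146) and 0.14 ± 0.08 in ventricles (adjusted P = 0.337). Mthfd1, the trifunctional cytosolic enzyme, was at 29.8 to 33.6 CPM in the 6 atrial libraries and 35.8 to 40.2 CPM in the 6 ventricular ones, and differed by 0.01 ± 0.07 (adjusted P = 0.966) and 0.08 ± 0.07 (adjusted P = 0.523). Both genotypes overlapped for Mthfd1 in each chamber. Mthfd1l, the mitochondrial formate-producing enzyme, ranged from 3.14 to 4.66 CPM in atria and from 1.5 to 3.5 CPM in ventricles, with control V327 highest in each, and differed by 0.13 ± 0.18 (adjusted P = 0.665) and 0.20 ± 0.28 (adjusted P = 0.711).

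Aldh1l1, which oxidizes formyl-tetrahydrofolate and so removes the carbon as CO2, was at 14.3, 12.6 and 12.5 CPM in control atria and at 19.8, 17.3 and 15.2 CPM in CUG960 atria. In ventricles it was at 6.0, 6.9 and 8.84 CPM in controls and at 8.43, 12.9 and 9.96 CPM in CUG960 mice. The atrial groups did not overlap, and the ventricular ones did through V119 and V334. The difference was 0.41 ± 0.11 in atria (edgeR, adjusted P = 0.0406, and up to 0.128 with a mouse left out) and 0.53 ± 0.18 in ventricles (adjusted P = 0.102). An antisense gene, Gm15756, shares 499 of the 4516 exonic bases of Aldh1l1, a same-strand noncoding gene, Gm45901, shares 105, and whether the counting used strand is not given in the sources used here.

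**Figure D2:**
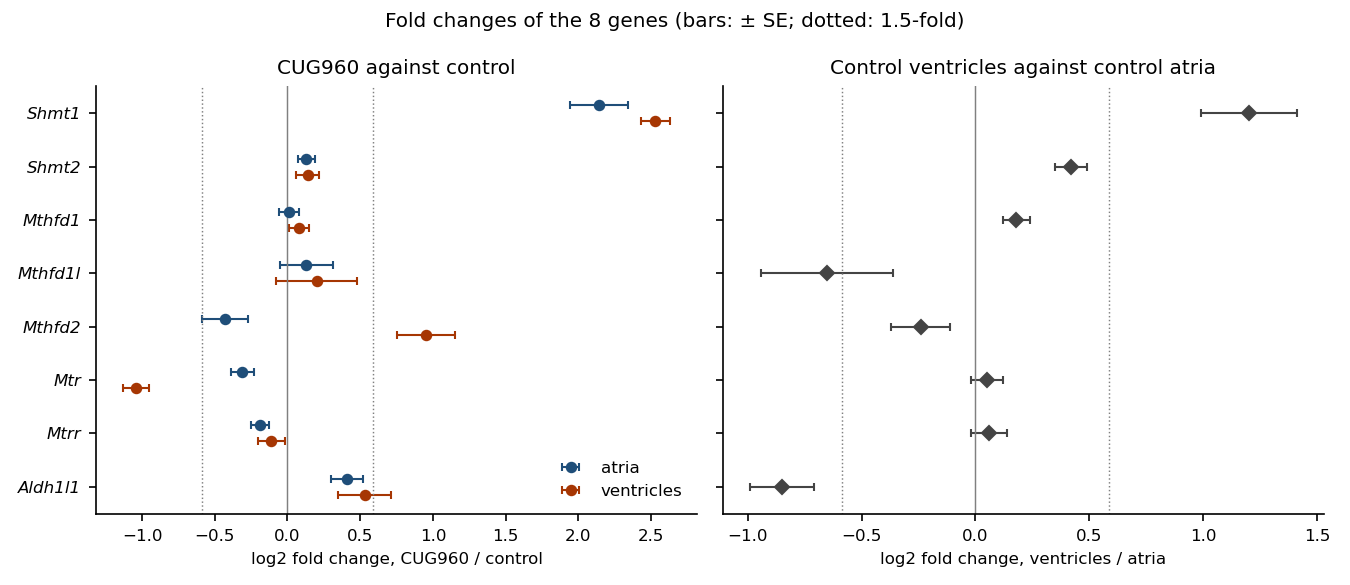
Log2 fold changes of the 8 genes (horizontal axes) with bars of ± SE. Left, CUG960 against control in atria (blue) and ventricles (brown), with Shmt1 at 2.14 and 2.53, Mtr at -0.31 and -1.04, and Mthfd2 at -0.43 and 0.95. Right, ventricles against atria in control hearts, with Shmt1 at 1.20 and Aldh1l1 at -0.85. Dotted lines mark a 1.5-fold change.

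Levels of different genes were compared per kilobase of annotated exon. In control atria Mtr was highest at 33.4 ± 0.133 CPM per kb (SD, n = 3), followed by Shmt2 at 10.7 ± 0.30, Mthfd1 at 7.23 ± 0.0605, Mtrr at 3.96 ± 0.131 and Aldh1l1 at 2.91 ± 0.231. Mthfd2, Mthfd1l and Shmt1 came last at 0.87, 0.846 and 0.783 CPM per kb, and their ranges over the 3 mice overlapped. In CUG960 ventricles Shmt1 ranked 3 of 8 at 10.3 ± 0.947 CPM per kb, with no overlap with Mthfd1 at 8.65 ± 0.444. Mtr at 16.7 ± 1.86 and Shmt2 at 15.7 ± 1.37 overlapped there. The per-length ratio of Shmt1 to Shmt2 was 0.0977, 0.0621 and 0.0587 in control atria, 0.272, 0.285 and 0.325 in CUG960 atria, 0.121, 0.113 and 0.143 in control ventricles, and 0.597, 0.624 and 0.761 in CUG960 ventricles. The transcript of the cytosolic enzyme thus stayed below that of the mitochondrial one in every library. With the longest transcript as the length the order in CUG960 ventricles became Shmt2 at 21.3, Mtr at 17.2 and Shmt1 at 14.0 CPM per kb.

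**Figure D3:**
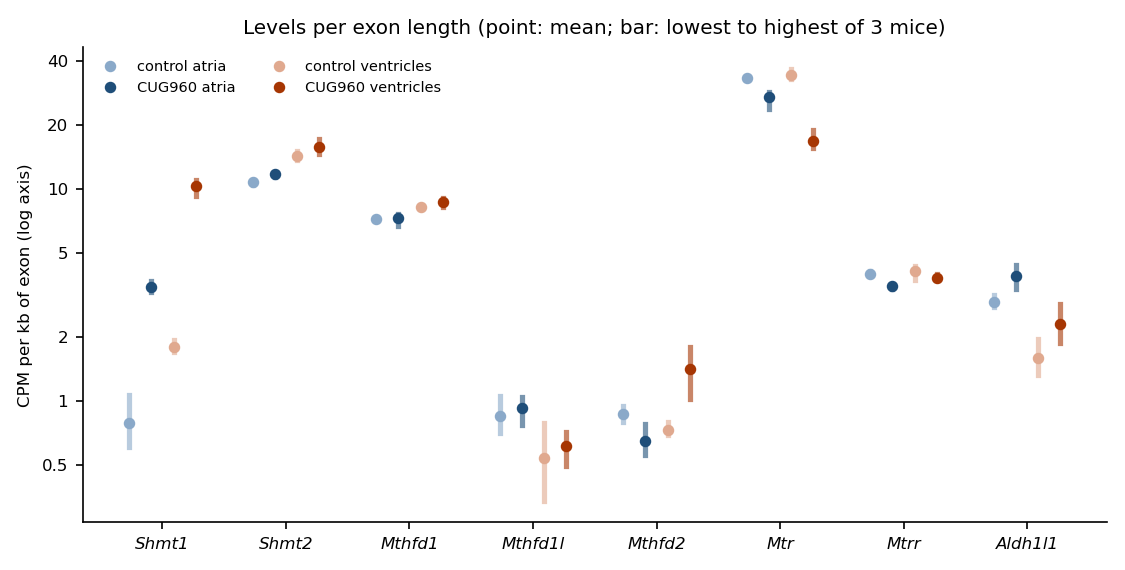
Level per exon length in CPM per kb (vertical log axis) of the 8 genes in the 4 groups. Points are means and bars span the lowest to the highest of 3 mice. Shmt1 goes from 0.783 CPM per kb in control atria to 10.3 in CUG960 ventricles, and Mtr from 33.4 to 16.7.

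Chamber differences in control hearts do not involve the repeat transgene and were tested for all 8 genes. The control values of Shmt1 also entered the rise by which it was chosen, so its test is not fully apart from that choice. Shmt1 was higher in control ventricles than in control atria by 1.20 ± 0.21 on the log2 scale, 2.29-fold (edgeR, adjusted P = 0.00142), and Aldh1l1 was lower, with a difference of -0.85 ± 0.14, 0.554 of the atrial level (adjusted P = 0.00117). These 2 of 8 passed the threshold, which 34.9% of all genes passed (16.6% higher and 18.3% lower in ventricles). With the adjusted P value alone 4 of 8 passed, adding Shmt2 at 0.42 ± 0.07 (adjusted P = 0.000766) and Mthfd1 at 0.18 ± 0.06 (adjusted P = 0.0255, but 0.102 to 0.136 with any control mouse left out), against 55.7% of all genes (27.5% higher and 28.3% lower). Mtr differed between chambers by 0.05 ± 0.07 (adjusted P = 0.528), Mtrr was at 0.06 ± 0.08 (adjusted P = 0.551) and Mthfd2 at -0.24 ± 0.13 (adjusted P = 0.151). Mthfd1l was at -0.65 ± 0.29 (adjusted P = 0.0919), and with the mouse as a block at -0.71 (adjusted P = 0.0095), which passes. It also passed without V327 (-0.85, adjusted P = 0.028). Markers of other cell types differed between control chambers as well. All 7 fibroblast markers, led by Dcn, and all 7 leukocyte markers, led by Lyz2, had lower estimates in ventricles, with summed levels of 1291 to 1499 against 2172 to 2545 CPM and of 111 to 140 against 249 to 577 CPM. In the direction of Shmt1, 7 of 8 proliferation markers had higher estimates in control ventricles, with a median of 1.01 on the log2 scale, and Ccnb1, Cdk1, Mki67 and Top2a passed. All 5 erythroid markers also had higher estimates there, and of the 5 endothelial ones Cdh5 and Kdr passed as higher and Emcn as lower. The part of these markers in the chamber results was not tested.

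A wider set of 50 genes in 8 lists was read around the 8 enzymes, covering folate uptake, folate interconversion and use, glycine cleavage and choline oxidation, the methionine cycle, cobalamin handling, serine synthesis and purine synthesis. In atria 47 were tested and 2 passed, both higher in CUG960 mice, and in ventricles 45 were tested and 2 passed, 1 in each direction. Beside the shares of all genes given above, these counts are 4.26% of those tested in atria and 4.44% in ventricles. Their median difference was -0.07 in atria and 0.04 in ventricles.

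Aldh1l2, the mitochondrial counterpart of Aldh1l1, was at 33.0, 32.6 and 36.2 CPM in control atria and at 84.3, 73.6 and 79.2 CPM in CUG960 atria. Aldh1l2 rose in atria by 1.22 ± 0.07 on the log2 scale, 2.33-fold (edgeR, adjusted P = 7.26e-05), with every CUG960 library well above every control. In ventricles it was at 14.3, 14.4 and 18.1 CPM in controls and 29.9, 19.7 and 18.9 in CUG960 mice, a difference of 0.55 ± 0.18 (adjusted P = 0.0826) in which V119 stood highest. The difference between chambers was -0.67 ± 0.21 (adjusted P = 0.188), and with the mouse as a block -0.69 (adjusted P = 0.0491). It also passed without V119, at -0.87 (adjusted P = 0.0343), and with DESeq2, at -0.68 (adjusted P = 0.0414). The per-length ratio of Aldh1l1 to Aldh1l2 was 0.574 to 0.721 in control atria and 0.318 to 0.391 in CUG960 atria, and in ventricles it was 0.7 to 0.813 in controls and 0.469 to 1.09 in CUG960 mice, with overlap.

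The 3 genes of serine synthesis differed in direction in atria, and in ventricles all 3 had estimates below 0 that did not pass. Psat1, the aminotransferase of the pathway, was at 5.46, 5.58 and 7.54 CPM in control atria and at 9.71, 8.92 and 10.3 CPM in CUG960 atria, and rose by 0.64 ± 0.14 (edgeR, adjusted P = 0.0197). In ventricles Psat1 was at 2.29, 2.02 and 2.62 CPM in controls and at 1.76, 1.62 and 1.97 CPM in CUG960 mice, a difference of -0.37 ± 0.16 (adjusted P = 0.192). The atrial call was lost without V119, V123, V327 or V333, with an adjusted P value of 0.0702, 0.0544, 0.0612 and 0.0722. The interaction of Psat1 passed at -1.02 ± 0.21 (edgeR, adjusted P = 0.0321) and was lost without V119, V120, V123, V327 or V333, at 0.143, 0.128, 0.0878, 0.133 and 0.0986. Phgdh, the first enzyme of the pathway, was at 4.31 to 4.73 CPM in control atria and 2.46 to 3.65 in CUG960 atria, with a difference of -0.55 ± 0.15 (adjusted P = 0.045) that stayed under 1.5-fold. With a mouse left out it ranged from -0.69 to -0.42. Its adjusted P value was 0.0373 without V120, where the fold limit was passed, and reached 0.131 with another mouse left out. In ventricles Phgdh was at 1.64 to 2.56 CPM in controls and 1.36 to 2.04 in CUG960 mice, a difference of -0.28 ± 0.22 (adjusted P = 0.475). Psph, the phosphatase of the pathway, was at -0.24 ± 0.08 in atria (adjusted P = 0.0917) and -0.18 ± 0.09 in ventricles (adjusted P = 0.259).

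In ventricles the pair that passed belongs to methyl transfer. Gnmt, which methylates glycine, was at 1.84, 2.36 and 1.88 CPM in controls and at 1.08, 1.22 and 1.02 CPM in CUG960 ventricles, and fell by 0.87 ± 0.18 (edgeR, adjusted P = 0.0166). This call was lost without V119 (adjusted P = 0.0555) and without V123 (adjusted P = 0.0582). Pemt, which methylates phosphatidylethanolamine, was at 1.02, 1.02 and 0.893 CPM in controls and at 1.32, 2.20 and 1.82 CPM in CUG960 ventricles, and rose by 0.87 ± 0.22 (edgeR, adjusted P = 0.0379). The Pemt call held without V119 and was lost without V120, V123, V327, V333 or V334, at an adjusted P value of 0.124, 0.0908, 0.0942, 0.0745 and 0.0971. Both genes were near 1 or 2 CPM, at 137 counts per CPM in a library of mean size. Sardh, which oxidizes sarcosine in mitochondria, was at 14.2 to 17.5 CPM in control atria and 19.5 to 22.8 in CUG960 atria, and at 14.2 to 14.9 CPM in control ventricles and 16.7 to 21.2 in CUG960 ventricles, with a difference of 0.40 ± 0.10 in each chamber (adjusted P = 0.0294 and 0.0397, up to 0.0973 and 0.129 with a mouse left out) that stayed under 1.5-fold. Tcn2, the cobalamin carrier of plasma, was below controls in every CUG960 library, at -0.25 ± 0.07 in atria (adjusted P = 0.0418, up to 0.128 with a mouse left out) and -0.46 ± 0.10 in ventricles (adjusted P = 0.024, up to 0.0982). In atria Lmbrd1, a lysosomal cobalamin exporter, at -0.24 (adjusted P = 0.025), Mut, the cobalamin-dependent methylmalonyl-CoA mutase, at -0.24 (adjusted P = 0.0337) and Pfas, of purine synthesis, at -0.37 (adjusted P = 0.0374) were likewise lower by less than 1.5-fold, with adjusted P values up to 0.084, 0.103 and 0.122 with a mouse left out. None of the 7 genes of folate uptake and retention passed in atria, nor any of the 6 tested in ventricles, beside 5.49% and 4.75% of all genes, so that these counts say nothing particular about the list.

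**Figure D4:**
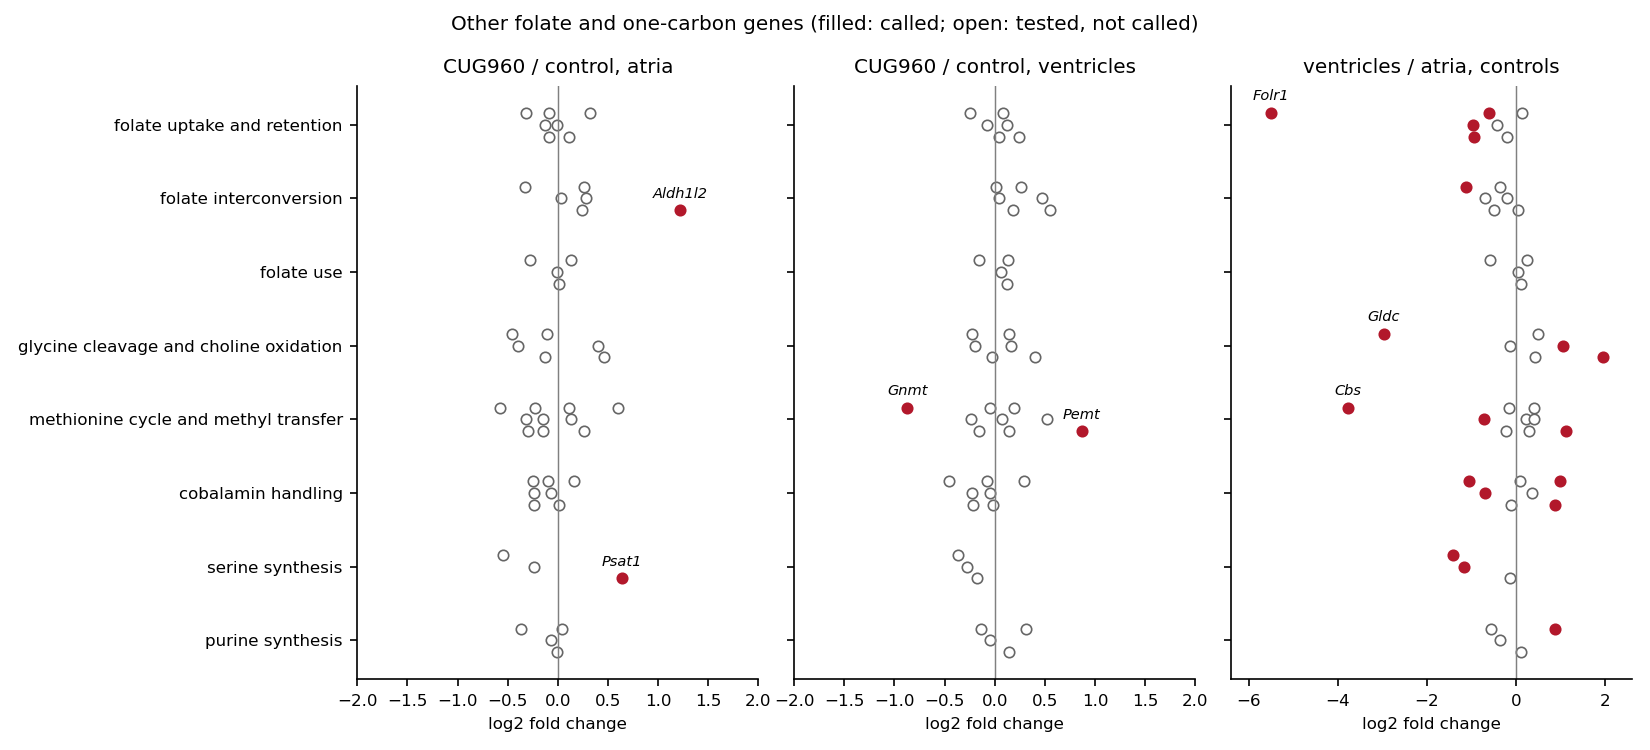
Log2 fold changes (horizontal axes) of the other folate and one-carbon genes that were tested, by list, in CUG960 against control atria, CUG960 against control ventricles and control ventricles against control atria. Filled points passed the threshold. Aldh1l2 at 1.22 and Psat1 at 0.64 pass in atria, and Gnmt at -0.87 and Pemt at 0.87 in ventricles. Mat1a, with 0 counts in every control ventricle, is left out of the right panel.

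Between control chambers 19 of 47 of these genes passed the threshold, 6 higher and 13 lower in ventricles. This is 40.4% of those tested, near the 34.9% of all genes (16.6% higher and 18.3% lower). The lower ones include Cbs, Folr1 and Mat1a, which passed the filter on low counts only through the atria, where they were higher. Both serine synthesis genes that passed were lower in ventricles, Psat1 at -1.42 ± 0.17 (adjusted P = 0.000158) and Phgdh at -1.16 ± 0.17 (adjusted P = 0.000629). So was Aldh1l2 at -1.12 ± 0.11 (adjusted P = 4.37e-05). Cbs, which opens transsulfuration, had 121 to 184 counts in control atria and 4 to 11 in control ventricles. Its fitted difference of -3.78 ± 0.37 is therefore a description only. Folr1, a folate receptor, had 131, 149 and 143 counts in control atria and 0, 2 and 4 in control ventricles. Mat1a, the liver form of methionine adenosyltransferase, was at 0.14 to 0.195 CPM in control atria and at 0 counts in control ventricles, so that it was at least 6.22-fold higher in atria (against 3 counts per library). Within the glycine cleavage system Gldc was lower in ventricles at -2.97 ± 0.30 (adjusted P = 6.84e-05) while Amt was higher by 1.96 ± 0.15 (adjusted P = 1.34e-05), and Dld was higher by 1.05. In cobalamin handling Mmachc was higher by 0.99 ± 0.06 (adjusted P = 4.45e-06) and Mmadhc by 0.88, and Abcd4 was lower at -1.05 and Tcn2 at -0.70. The pass of Slc46a1, the proton-coupled folate transporter, at -0.61 was lost without V333 (adjusted P = 0.138) and without V334 (adjusted P = 0.0774). The other genes that passed were Gnmt and Adsl, higher in ventricles, and Folr2, Ggh and Pemt, lower there.

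Genes of the integrated stress response, several of which share regulation with Mthfd2 and Psat1 in other settings, were read as a list of 8, of which 7 were tested in each chamber. Sesn2, a leucine sensor, was at 5.02, 4.82 and 4.86 CPM in control ventricles and at 7.35, 9.20 and 7.75 CPM in CUG960 ventricles, and rose by 0.72 ± 0.12 (edgeR, adjusted P = 0.00561). Thus 0 of 7 passed in atria and 1 of 7 in ventricles, beside 5.49% and 4.75% of all genes. Ddit3 was at 0.36 ± 0.08 in atria (adjusted P = 0.0208, up to 0.0711 with a mouse left out) and 0.41 ± 0.15 in ventricles (adjusted P = 0.123). Atf4, the transcription factor of the response, was at -0.11 ± 0.15 in atria (adjusted P = 0.68) and -0.12 ± 0.09 in ventricles (adjusted P = 0.488), and Asns at -0.22 ± 0.15 (adjusted P = 0.351) and 0.18 ± 0.23 (adjusted P = 0.684).

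Markers of other cell types moved with genotype in part. All 5 endothelial markers, led by Pecam1, had lower estimates in CUG960 hearts, with summed levels of 504 to 600.2 CPM in control atria, 390.4 to 436 in CUG960 atria, 628 to 781 in control ventricles and 501 to 544 in CUG960 ventricles. Pecam1 itself was at -0.71 in atria (adjusted P = 0.00431) and -0.53 in ventricles (adjusted P = 0.00179), the latter under 1.5-fold. Thus 1 of 5 passed in atria and 0 of 5 in ventricles, beside 5.49% and 4.75% of all genes. With the adjusted P value alone, Cdh5 and Tie1 were added in atria and Cdh5 and Pecam1 passed in ventricles. Kdr and Emcn passed in neither chamber. The 8 proliferation markers, led by Pcna, summed to 50.9 to 54.2 CPM in control atria, 51.9 to 58.6 in CUG960 atria, 64.7 to 74.0 in control ventricles and 69.2 to 81.9 in CUG960 ventricles. In atria 2 of 8 had estimates above 0, with a median of -0.07, and in ventricles 6 of 8 did, with a median of 0.52 on the log2 scale. The 2 below 0 in ventricles were Mki67 and Top2a. Mki67 was at 6.2 to 9.46 CPM in control ventricles and 5.39 to 7.66 in CUG960 ventricles. Top2a was at 4.11 to 6.12 and 3.44 to 5.43 CPM, and both overlapped between genotypes. Mcm5 alone passed between genotypes, at 0.67 in ventricles (adjusted P = 0.0141, up to 0.0501 with a mouse left out), which is 0 of 8 in atria and 1 of 8 in ventricles beside 5.49% and 4.75% of all genes. All 7 fibroblast markers had lower estimates in CUG960 atria, summing to 1839 to 2174 CPM, and 3 of 7 did in ventricles. In atria Pdgfra at -0.47 (adjusted P = 0.0113, up to 0.0501 with a mouse left out) and Col1a2 at -0.37 (adjusted P = 0.0306, up to 0.0975) were lower by less than 1.5-fold, with no overlap between genotypes. All 7 leukocyte markers had lower estimates in both chambers, with medians near 0, at -0.18 in atria and -0.07 in ventricles. Their sums overlapped between genotypes. They were 248.9 to 576.5 CPM in control atria, with V334 highest, and 278.5 to 324.3 in CUG960 atria. In ventricles they were 111.0 to 139.9 CPM in controls and 104.1 to 133.0 in CUG960 mice. No fibroblast or leukocyte marker passed the threshold with its fold limit, beside the same shares of all genes. All 5 adipocyte markers had lower estimates in both chambers, with a median of -1.13 in atria and -1.46 in ventricles. Led by Adipoq, they summed to 4.15 to 5.67 CPM in control ventricles and 0.913 to 3.06 in CUG960 ventricles. In control atria the sums were 4.12, 14.3 and 3.84 CPM in V327, V333 and V334, so that V333 stood apart. In CUG960 atria they were 1.71, 5.19 and 3.29 CPM, overlapping the controls. Adig and Plin1, the latter at -1.86 (adjusted P = 0.00906), passed in ventricles, which is 2 of 5, and 0 of 5 passed in atria, beside the same shares of all genes. Erythroid markers, led by Hbb-bs, summed to 322.9 to 2766 CPM in control atria, where V334 was highest, 322.9 to 439.6 in CUG960 atria, 1842 to 2914 in control ventricles and 1289 to 2201 in CUG960 ventricles. The share of counts from mitochondrially encoded genes was 19.6% to 20.5% in control ventricles and 15.3% to 18.4% in CUG960 ventricles, and 10.9% to 12.2% over all atria. The part of these in the results above was not tested.

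Genes whose level followed that of Shmt1 most closely over the 12 libraries were sought among 13111 genes that averaged 1 CPM or more, by Pearson's r of log2(CPM + 0.1). The points are the 2 chambers of 6 mice in 4 groups and share mouse and genotype, so r is a description. The 5 closest were Nsmce2 at r = 0.984, 2810004N23Rik at 0.98, Hagh at 0.979, Ccne1 at 0.978 and Pld6 at 0.975, beside a 99th percentile of 0.905 and a median of 0.0024 over all genes. Ccne1, cyclin E1, was at 0.648 to 0.861 CPM in control atria, 1.7 to 2.35 in control ventricles, 3.39 to 3.92 in CUG960 atria and 10.2 to 10.7 in CUG960 ventricles. Hagh, a glyoxalase, was at 36.8 to 38.1, 65.1 to 74.8, 89.7 to 102 and 162 to 164 CPM in the same order of groups. Both had the group order of Shmt1. Pld6 reached a mean of 1 CPM only through CUG960 ventricles, with group means of 0.0239, 0.265, 0.467 and 5.07 CPM in the same order, so its place among the 5 rests on the group in which it was high. Among the other 7 enzymes r was 0.717 for Shmt2, 0.595 for Mthfd1, 0.517 for Mthfd2, 0.00479 for Aldh1l1, -0.137 for Mthfd1l, -0.325 for Mtrr and -0.892 for Mtr.

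Of the annotated genes within 1.5 Mb of Shmt1, 62 were tested in atria and 60 in ventricles. Of these 3 passed in atria and 4 in ventricles, 4.84% and 6.67% of those tested, near the shares of all genes. The protein-coding genes among them were Pld6, Pemt and Mfap4. Pld6, a mitochondrial phospholipase of piRNA biogenesis, lies 1.0 Mb from Shmt1 at lower coordinates and was at 0.0 to 0.0589 CPM in control atria, 0.386 to 0.538 in CUG960 atria, 0.253 to 0.277 in control ventricles and 4.46 to 5.88 in CUG960 ventricles. It was higher by 4.25 ± 0.18 on the log2 scale in ventricles. In atria Pld6 had 9, 0 and 2 counts in the control libraries and 60 to 77 in the CUG960 ones, through which it passed the filter on low counts, and the fitted difference of 4.29 ± 0.70 ranged from 3.68 to 6.08 with a mouse left out. The 3 noncoding genes that passed were Gm12264 and Gm26534 in atria and A530017D24Rik in ventricles. Gm12264 had 16 to 31 counts in control atria and 5 to 7 in CUG960 atria. It passed the filter on low counts only through the controls, where it was higher.

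**Figure D5:**
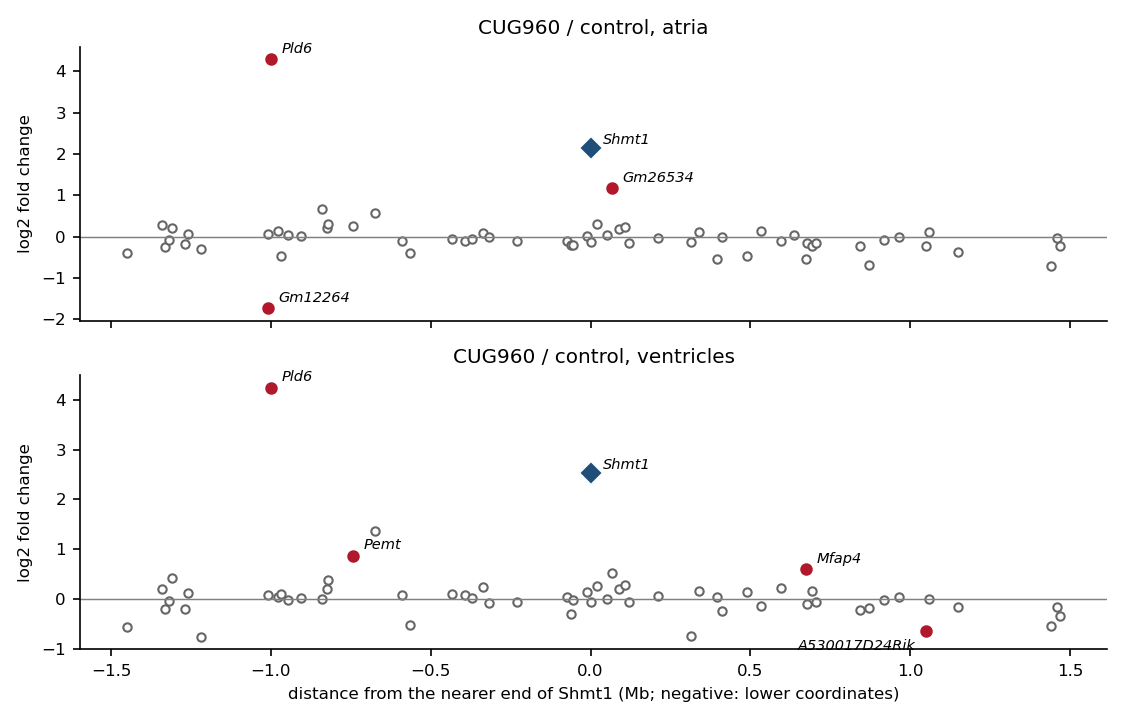
Log2 fold change of CUG960 against control (vertical axes) of tested genes within 1.5 Mb of Shmt1, by distance from its nearer end in Mb (horizontal axis), in atria (top) and ventricles (bottom). Red points passed the threshold, open points did not, and the diamond is Shmt1 at 2.14 and 2.53. Pld6 stands at 4.29 and 4.25, 1.0 Mb away.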

How the data were processed

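RNA of atria and ventricles was sequenced as stranded poly(A) libraries, and the authors aligned the reads to GRCm38 and estimated expected counts per gene with RSEM 1.3.1 on Ensembl annotation. The deposited expected counts were unscaled and unfiltered, and every value was a whole number. RSEM divides reads among loci they match, and 42.4% of entries were at 0 in every library. Depth was 116127966 to 160676189 counts. Members had at least 158 counts in each library. Pld6, Folr1, Mat1a, Cbs and Gm12264 had few or no counts in some groups, where counting limits precision.

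Each chamber was fitted on its own, and the interaction over 12 libraries, with edgeR 4.0.16 in R 4.3.3 (filterByExpr, TMM, quasi-likelihood test, Benjamini-Hochberg adjustment over all genes tested). Genes passed at a change of 1.5-fold or more with an adjusted P value under 0.05, and for the interaction without a fold limit. CPM use TMM library sizes over 12 libraries. Animals are the replicates. Coordinates and exon lengths come from GENCODE M21, a later release than the one counted on, and upstream sequences from RefSeq GRCm38.p6, where all 8 genes matched.

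The members and gene lists were chosen with earlier results of these data known. Named genes were the 8 members, list genes that passed in some comparison, the 5 genes most like Shmt1, genes that passed within 1.5 Mb of it, genes overlapping a member and Dmpk. Other list genes are given as values.

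Mouse numbers pair the chambers: after group means were removed, r was 0.0302 to 0.135 for libraries of the same mouse and -0.141 to 0.0536 for the rest. The fits were tested on simulated data. Alternatives were DESeq2 1.42.0, RLE and upper quartile scaling, mitochondrially encoded genes left out, other count filters, a single 12-library fit, other fold limits, the mouse as a block, and each mouse left out.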

Additional observations from a re-analysis of the deposited data

Results flagged for a closer look

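For 3 genes the CUG960 difference itself differed between atria and ventricles by the edgeR interaction. The adjusted P value was 0.0164 for Mtr, 0.0293 for Mthfd2 and 0.0321 for Psat1. Mtr was lower in CUG960 mice in both chambers, and further below controls in ventricles. Mthfd2 and Psat1 had estimates of opposite sign in the chambers, positive in ventricles for Mthfd2 and positive in atria for Psat1, with 1 chamber past the threshold for each. Each of these calls was lost without some of the mice, as given with the values of the gene. With the mouse as a block the edgeR interaction of Mthfd2 did not pass (1.36, adjusted P = 0.0542).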

How the results depend on the processing

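No difference of a member or pathway gene that passed changed sign under any alternative. In atria the count of members that passed (0) became 2 with no fold limit, and the count of other pathway genes (2) became 8 with no fold limit, 0 with the limit set at 1.5 on the log2 scale, and 1 to 3 with a mouse left out. In ventricles the members (2) became 0 at the stricter fold limit and 1 to 2 with a mouse left out, and the pathway genes (2) became 4 with no fold limit, 0 at the stricter limit and 0 to 1 with a mouse left out. For the interaction, the members (2) became 1 with the mouse as a replicate block and 0 to 2 with a mouse left out, and the pathway genes (1) became 2 with DESeq2, 2 with the block and 0 to 1 with a mouse left out. In control chambers, the members (2) became 4 with no fold limit and 0 at the stricter limit, and the pathway genes (19) became 30 and 5. The number of all genes with an interaction (253) was 652 with DESeq2, and 74 to 131 with a mouse left out, where fewer samples enter the fit. The causes of the other shifts were not tested. The block changed the calls of Mthfd2 and Aldh1l2 in the interaction and of Mthfd1l between control chambers, and no other call of a member or pathway gene. Mthfd1l between control chambers also passed with DESeq2 (adjusted P = 0.037) and with no filter (adjusted P = 0.0485). Of the 5 genes most like Shmt1, 1 remained with Spearman's rho and 3 with a mean of at least 5 CPM. Libraries hold at least 158 counts of every member, and 3 mice per group limit what can be detected.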
